A study of Mus musculus with 8 samples.

Results

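The mitochondrial ribosomal protein genes were examined in mouse hematopoietic stem cells (HSCs), the cells that renew themselves and give rise to all blood lineages. They were taken as every protein-coding gene whose symbol starts with Mrpl or Mrps followed by a number, which gave 78 genes among the 55487 gene rows counted in each library. Of these, 49 carry large-subunit symbols (Mrpl) and 29 carry small-subunit symbols (Mrps). The study compared 4 libraries of HSCs with knockdown of the microRNA miR-652 (miR652-KD) with 4 libraries of HSCs given a non-target control (NTC). All 8 libraries came from sorted HSCs lysed directly and were made by Smart-seq2, a method that copies full-length polyadenylated RNA from few cells. The series title places the work in the study of HSC aging and of the pseudouridine synthase Pus10. The labels give no strain, sex, age, knockdown reagent or culture step, and they do not say whether replicates came from separate mice, so p-values below measure the spread between libraries, which may be partly technical.

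Mitochondria keep their own ribosome, which makes only the few proteins encoded in mitochondrial DNA, all of them core subunits of the respiratory chain and ATP synthase. Its ribosomal RNAs come from mitochondrial DNA, whereas all of its proteins are encoded in the nucleus, made in the cytosol and imported. Many of these proteins have bacterial counterparts and others exist only in mitochondria. The large subunit forms peptide bonds and releases the new chain through an exit tunnel, and the small subunit binds and decodes the mRNA. HSCs hold mitochondria but keep respiration low at rest, and mitochondrial activity goes up when they leave quiescence.

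Both mature strands of miR-652 are shown because the knockdown targets this microRNA and its seed, bases 2 to 8 from the 5′ end, is the stretch that pairs with targets. The sequences are those of RefSeq for GRCm38.p6, on the plus strand of chromosome X at chrX:142739020-142739043 for the 5p strand and chrX:142739060-142739080 for the 3p strand, with the seed in capitals.
mmu-miR-652-5p: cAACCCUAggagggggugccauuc
mmu-miR-652-3p: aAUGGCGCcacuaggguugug
The 7 bases complementary to the 3p seed, GCGCCAT, occurred in the 3′ UTR of 0 of the 78 genes, beside 191 of 11487 tested genes with a 3′ UTR (1.66%). The complement of the 5p seed, TAGGGTT, occurred in 5 of the 78 (6.41%), beside 851 of the 11487 (7.41%). The 3′ UTRs of the mitoribosomal genes were short, with a median of 323 bases beside 955 bases over the tested genes. The 5 matches are shown with their flanks, the 7 complementary bases in capitals.
Mrpl49: gtactaggTAGGGTTggggaatc
Mrpl11: accacagaTAGGGTTatccttta
Mrpl51: ttttgagaTAGGGTTttctctat
Mrpl17: taattatgTAGGGTTccgaatct
Mrps2: taatcacaTAGGGTTgactcccc
In Mrpl11 the match was followed by an A, the base that often flanks effective microRNA sites. A match of letters is a description and was not tested as a site. The Mir652 hairpin gene itself had 5, 0, 0 and 0 reads in the miR652-KD libraries and 1, 0, 0 and 2 reads in the NTC libraries. Smart-seq2 does not capture mature microRNAs, so these counts give no check of the knockdown.

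Promoters were compared because the mitoribosomal genes are named as parts of a single complex but lie on 17 chromosomes, with 11 genes on chromosome 11 and 8 on chromosome 17. RefSeq windows from 250 bases before to 50 bases after the start (GRCm38.p6) were matched for 69 of the 78 genes, and 4 motifs were searched on both strands. A gene with several windows was counted once, as a match if any of its windows held the motif. The ETS-family core CCGGAAG, bound by factors such as GABP, was present in 26 of the 69 (37.7%). It was present in 20.8% of the 9878 tested genes with a window and in 9.9% of all 27025 genes with a window. The YY1 motif AAGATGGC was present in 12 (17.4%), beside 5.4% of tested genes and 3.2% of all genes with a window. The motif GCATGCGC of NRF1, a regulator of nuclear genes for mitochondrial proteins, was present in 8 (11.6%), beside 6.1% and 3.0%. The TATA-box letters TATAAA were present in 5 (7.2%), beside 8.3% and 15.7%. The ETS and YY1 matches overlapped each other in 0 genes. These shares describe letters in a window and do not show binding in HSCs.

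The promoters of 4 genes that recur below are printed 5′ to 3′ along the gene's own strand, with ETS, YY1, NRF1 or TATA letters in capitals. Mrpl42 and Mrps5 are the genes whose groups did not overlap, Mrps12 had the highest level per exon length among Mrps genes, and Mrps11 shares its start region with Mrpl46. Mrpl42 (minus strand, chr10:95501900-95502199) held a YY1 match 27 bases after the start.
Mrpl42: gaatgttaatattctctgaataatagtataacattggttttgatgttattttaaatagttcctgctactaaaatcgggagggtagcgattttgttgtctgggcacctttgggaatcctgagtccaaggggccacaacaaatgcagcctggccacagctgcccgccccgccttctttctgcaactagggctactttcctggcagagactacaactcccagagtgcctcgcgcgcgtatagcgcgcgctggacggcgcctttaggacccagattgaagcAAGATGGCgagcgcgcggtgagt
Mrps5 (plus strand, chr2:127587176-127587475) held none of the 4 motifs in this window.
Mrps5: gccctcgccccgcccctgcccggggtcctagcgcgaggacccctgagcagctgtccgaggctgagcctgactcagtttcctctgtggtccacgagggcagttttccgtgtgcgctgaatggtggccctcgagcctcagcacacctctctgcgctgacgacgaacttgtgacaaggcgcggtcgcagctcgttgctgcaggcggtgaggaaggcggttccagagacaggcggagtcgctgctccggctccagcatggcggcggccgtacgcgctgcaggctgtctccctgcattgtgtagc
Mrps12 (minus strand, chr7:28741772-28742071) held a YY1 match 199 bases before the start and an ETS match 1 base after it.
Mrps12: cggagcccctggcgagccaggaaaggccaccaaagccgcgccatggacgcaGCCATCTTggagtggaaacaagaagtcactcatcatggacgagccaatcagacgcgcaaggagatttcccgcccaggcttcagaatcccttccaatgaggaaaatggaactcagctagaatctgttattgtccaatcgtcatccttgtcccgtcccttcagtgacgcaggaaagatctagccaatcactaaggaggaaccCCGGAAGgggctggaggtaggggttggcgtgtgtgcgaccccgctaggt
Mrps11 (plus strand, chr7:78782881-78783180) held a YY1 match 107 bases before the start.
Mrps11: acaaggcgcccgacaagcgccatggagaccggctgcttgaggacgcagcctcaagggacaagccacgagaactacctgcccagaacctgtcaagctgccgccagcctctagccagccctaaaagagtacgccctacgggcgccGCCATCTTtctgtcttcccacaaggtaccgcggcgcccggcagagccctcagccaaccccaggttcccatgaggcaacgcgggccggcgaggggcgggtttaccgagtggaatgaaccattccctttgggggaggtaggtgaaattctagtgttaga
The RefSeq start of Mrpl46 lies on the opposite strand 42 bases from that of Mrps11, so this window also covers the first bases of Mrpl46, and from these starts the genes are transcribed away from one another; in GENCODE M21 their annotated extents overlap.

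Gene counts totalled 14677644 to 19894821 per library in miR652-KD and 14017632 to 16763709 in NTC. Reads that the counting assigned to no gene, which may include reads in introns, made up 9.69 to 16.94% of the counted total, the highest in NTC 1. HSC markers (Kit, Ly6a, Procr, Slamf1, Mecom and Hlf) summed to 1473.1 to 1550.7 CPM in miR652-KD and 1444.2 to 1684.2 CPM in NTC, where CPM is reads of a gene per 1000000 gene counts of its library. Members of this list went different ways: Ly6a was higher in miR652-KD with no overlap (log2 fold change 0.62, adjusted edgeR p 0.598), Kit lower with no overlap (-0.34, adjusted p 0.782) and Mecom lower with overlap (-0.33, adjusted p 0.803). Erythroid markers (8 genes, all tested) summed to 19.49 to 2272.5 CPM in miR652-KD and 2291.7 to 5647.2 CPM in NTC, with no overlap. Neutrophil markers (7 genes) summed to 38.6 to 3945.7 CPM in miR652-KD and 10.76 to 13062.9 CPM in NTC. The highest sums were 8527.2 CPM in NTC 3 and 13062.9 CPM in NTC 4. Ngp reached 2413.1 and 3622.7 CPM there and at most 24.74 CPM in the other libraries. Elane was also high outside them, with 1919.9 CPM in miR652-KD 1 and 982.6 CPM in NTC 2. A fit without NTC 3 and NTC 4 is given at the end. Markers of macrophages and dendritic cells (5 genes) summed to 761.5 to 998.2 CPM in miR652-KD and 719.9 to 2230.2 CPM in NTC, nearly all of it Lyz2, which neutrophils also express. Csf1r had 8.176, 3.161, 0.3519 and 1.154 CPM in miR652-KD and was at 0 in all 4 NTC libraries. B-lymphoid markers (4 genes) summed to 44.03 to 78.49 CPM in miR652-KD and 48.76 to 78.44 CPM in NTC. Megakaryocyte markers (4 genes) summed to 171.4 to 300.1 CPM in miR652-KD and 211.2 to 365.8 CPM in NTC. T-lymphoid markers (Cd3e, Cd3d and Cd3g) were at 0 in 3 of the 4 miR652-KD libraries, at 0.05026 CPM in miR652-KD 3, and at 0 in all 4 NTC libraries. The part of these cells in the values below was not tested, and in bulk libraries fewer cells of a type and less RNA per cell cannot be told apart.

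Of the 78 genes, 77 had counts in every library, passed the filter on low counts and were tested. The lowest of them still had 2207 reads over the 8 libraries. The remaining gene, Mrpl53 (ENSMUSG00000030037.9, mm10 chromosome 6, 83109040 to 83109939, plus strand), a mitochondrion-specific protein of the large subunit, had 0 reads in every library, which allows up to 3 reads in each. Of its annotated exon bases 88.0% also belong to Ccdc142os or Gm42688, and the deposited counts set reads that fall on more than 1 gene aside as ambiguous. Exon bases were shared with another gene in 33 of the 78 genes and exceeded 20% in 10 of them, among them Mrps34 (77.8%, with Mapk8ip3 and Nme3) and Mrps25 (69.8%, with Nr2c2). The levels of those genes may be understated, which for genes on opposite strands depends on the strand setting of the counting. Annotated pseudogenes can also take reads: Mrpl23-ps1 had 122, 149, 252 and 139 reads in miR652-KD and 116, 124, 130 and 78 reads in NTC.

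Levels were compared between genes per kilobase of length, as the mean CPM over the 8 libraries. Over all annotated exon bases, the tested genes spanned 4.2 to 170.5 CPM per kb, with a median of 31.7 for Mrpl genes and 21.8 for Mrps genes. The highest was Mrpl34 (bacterial L34 counterpart) with 170.5 CPM per kb, followed by Mrpl54, a mitochondrion-specific protein, with 129.9 and Mrpl28 (L28 counterpart) with 127.4. Among Mrps genes Mrps12, the counterpart of S12 at the decoding centre, led with 114.6 CPM per kb, followed by Mrps24, the S3 counterpart at the mRNA entry, with 86.8 and Mrps28 with 79.2. At the low end were Mrpl47 (L29 counterpart) with 6.15, Mrpl1 with 5.85 and Mrpl33 with 4.17 CPM per kb.

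The order of levels depended on which length was used. Per kb of the transcript with the longest coding part, the range was 7.1 to 262.3 CPM per kb, the medians were 49.1 for Mrpl and 42.5 for Mrps, and Spearman's rho between both scales was 0.80 across the 77 genes, which are not independent. On this scale Mrpl23 was first with 262.3 and Mrpl42 next with 254.7 CPM per kb, although they ranked 29 and 23 over all exons. Mrpl33 shifted from rank 77 to rank 25, since its annotated exons cover 7326 bases and its coding transcript 478 bases. Mrpl34 had 170.5 CPM per kb on both scales. The coding parts themselves are short, 195 to 1326 bases with a median of 582.

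**Figure D1:**
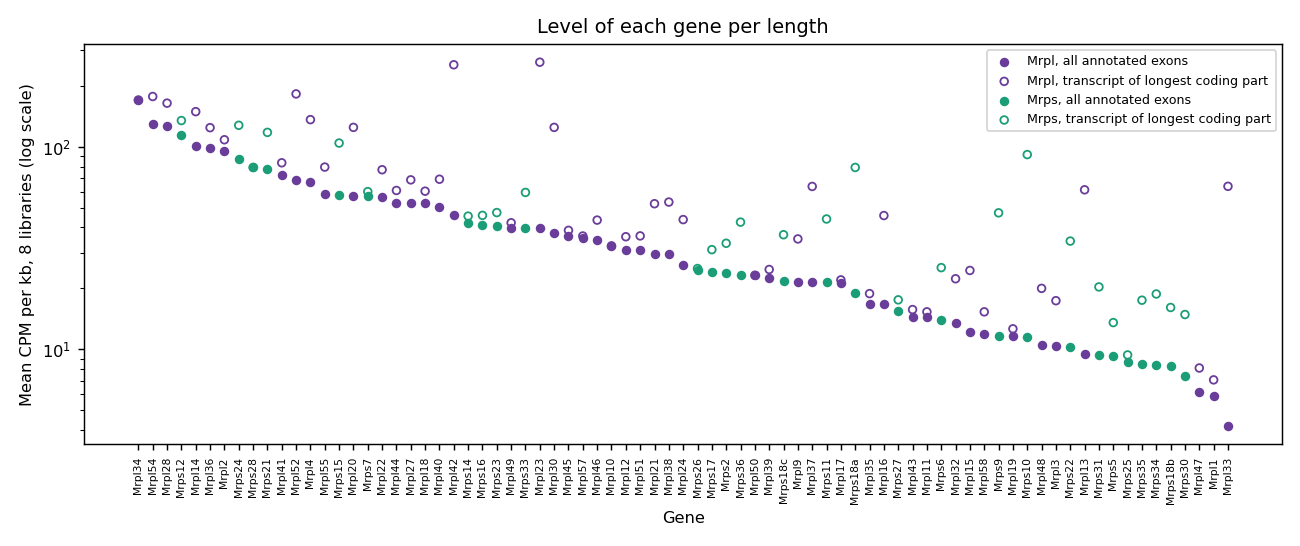
Mean CPM per kilobase over the 8 libraries (log scale) for the 77 tested genes, ordered by the value over all annotated exons; filled points use all annotated exons, open points the transcript with the longest coding part, in purple for Mrpl and green for Mrps. Filled points span 4.2 to 170.5 CPM per kb, and the open points of Mrpl23 and Mrpl42 lie highest, at 262.3 and 254.7.

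Together the mitoribosomal genes took about the same small share of the transcriptome in both groups. Their summed CPM was 5846.6, 6314.8, 6136.6 and 6360.3 in miR652-KD libraries and 5176.2, 6151.2, 6065.1 and 5893.5 in NTC libraries. The groups overlapped, and NTC 1 was lowest of all 8. The means were 6164.6 ± 232.9 CPM in miR652-KD and 5821.5 ± 443.3 CPM in NTC (SD, n = 4 each), a log2 difference of 0.085 beside a replicate SD of 0.089. Without NTC replicate 1 this difference was 0.030.

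Both subunits showed the same picture. The Mrpl genes summed to 3851.0, 4103.8, 4103.2 and 4193.4 CPM in miR652-KD and 3410.7, 4153.5, 3984.8 and 3908.6 CPM in NTC, and the Mrps genes to 1995.6, 2211.0, 2033.4 and 2166.9 CPM in miR652-KD and 1765.6, 1997.7, 2080.3 and 1984.9 CPM in NTC. For each subunit the groups overlapped and NTC 1 was lowest. The ratio of summed Mrpl to summed Mrps CPM was 1.93, 1.856, 2.018 and 1.935 in miR652-KD (mean 1.935 ± 0.066) and 1.932, 2.079, 1.916 and 1.969 in NTC (mean 1.974 ± 0.074). This balance of subunit transcripts thus differed between groups by less than the spread within them, with a log2 difference of -0.029 beside a replicate SD of 0.051. Symbols and structure disagree for Mrps18a and Mrps30, whose proteins sit in the large subunit in structures of the mammalian ribosome. Counting these with the large subunit gave a log2 difference of -0.025. All other genes were kept in the subunit of their symbol and were not checked against structures.

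**Figure D2:**
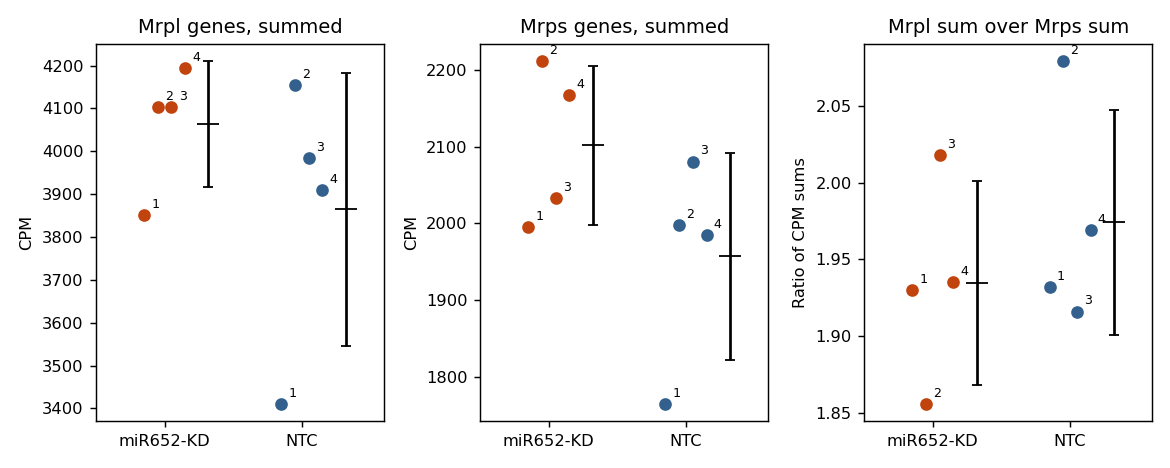
Summed CPM of Mrpl genes (left), of Mrps genes (middle) and the ratio of these sums (right) in each miR652-KD and NTC library, numbered by replicate, with the mean and SD of each group beside the points; the vertical axes do not start at 0. The groups overlap in every panel, and NTC 1 has the lowest Mrpl sum (3410.7 CPM) and the lowest Mrps sum (1765.6 CPM).

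No mitoribosomal gene passed the test between groups. With edgeR's quasi-likelihood test and Benjamini-Hochberg adjustment over all 14360 genes tested, 0 of the 77 were called at an adjusted p below 0.05, 0 in either direction, beside 6 of all genes (0.0418%). The smallest adjusted p among them was 0.779. DESeq2 also called 0 of the 77, while calling 131 genes in all, with a smallest member adjusted p of 0.185. At an unadjusted p below 0.05 edgeR had 2 of the 77, Mrpl42 and Mrps5, against a background of 5.99% of all genes. The CPM of the 4 miR652-KD libraries all exceeded those of the 4 NTC libraries in 1 gene, Mrpl42 (background 2.35%), and all lay below them in 1 gene, Mrps5 (background 2.15%). The other 75 overlapped.

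Estimated fold changes were small and mostly slightly positive. The log2 fold change of miR652-KD over NTC had a median of 0.08 over the 77 genes (quartiles -0.06 and 0.20, range -0.55 to 0.40), beside a median of -0.00 over all genes. It was above 0 in 50 of 77 genes (64.9%), beside a background of 49.5%. Mrpl genes had a median of 0.06 with 29 of 48 above 0, and Mrps genes a median of 0.09 with 21 of 29 above 0. With Mrps18a and Mrps30 counted in the large subunit, its median was 0.07, with 31 of 50 above 0. The small subunit then had a median of 0.09, with 19 of 27 above 0. The excess rested on 1 library: without NTC replicate 1, the median was -0.01 and 38 of 77 genes were above 0.

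**Figure D3:**
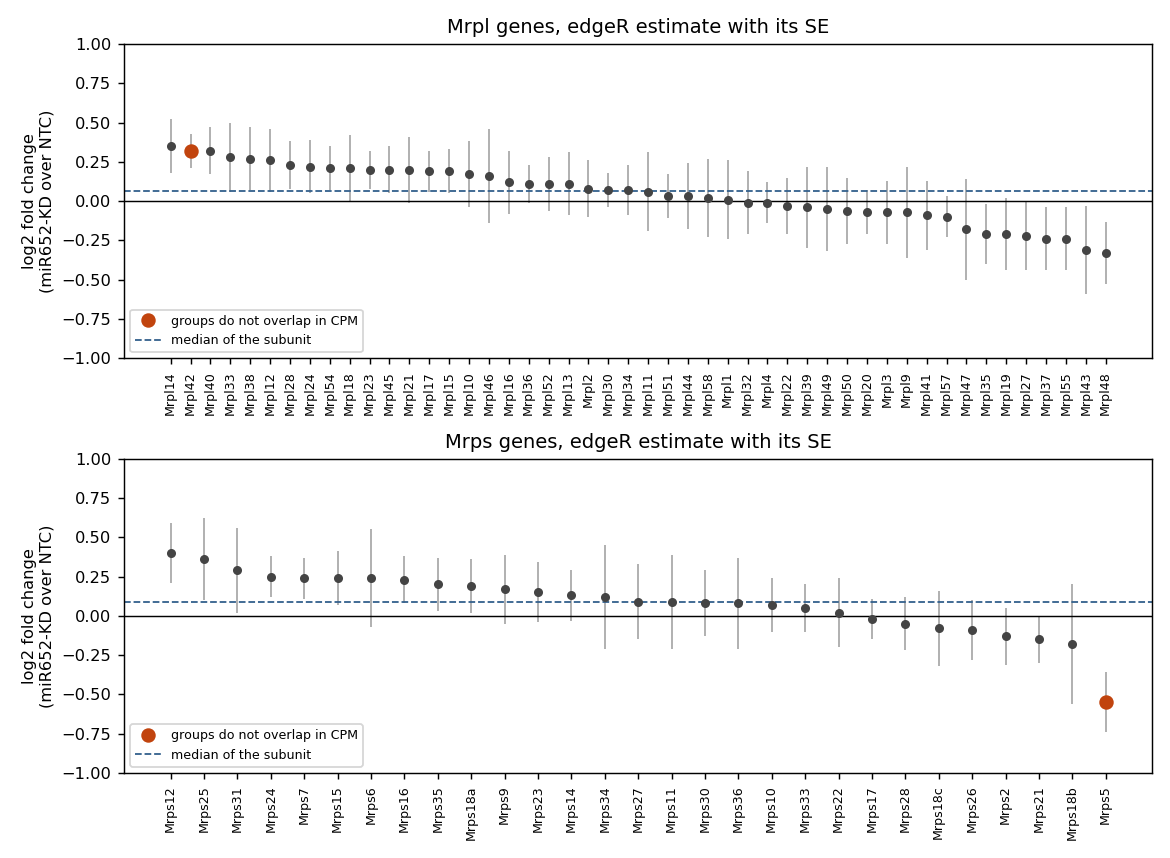
Log2 fold change of miR652-KD over NTC from edgeR, with its SE, for the 48 Mrpl genes (top) and 29 Mrps genes (bottom) tested, in descending order; the dashed line is the subunit's median, and red points mark genes whose groups do not overlap in CPM. Mrpl42 (0.32) and Mrps5 (-0.55) are the red points, and the subunit medians are 0.06 and 0.09.

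Among large-subunit genes, Mrpl42 (ENSMUSG00000062981.5, mm10 chromosome 10, 95480805 to 95501940, minus strand), which encodes a mitochondrion-specific protein, was the one whose groups stood apart. It had 185.4, 187.3, 200.6 and 179.8 CPM in miR652-KD and 156.6, 147.8, 170.2 and 129.7 CPM in NTC. Every miR652-KD library was above every NTC library. The means were 188.2 ± 8.81 CPM in miR652-KD and 151.1 ± 16.99 CPM in NTC (SD, n = 4 each), with a log2 fold change of 0.32 (SE 0.11), an unadjusted edgeR p of 0.0144 and an adjusted p of 0.779. Leaving out any single library gave a log2 fold change of 0.26 to 0.39. Its sign could hardly change, because the groups did not overlap.

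Mrpl40 (ENSMUSG00000022706.16, chromosome 16, 18872018 to 18876862, minus strand), a mitochondrion-specific protein whose human gene lies in the region deleted in the DiGeorge syndrome, had 106.8, 108.8, 81.43 and 96.83 CPM in miR652-KD and 71.70, 81.54, 75.58 and 86.44 CPM in NTC. The groups overlapped because miR652-KD 3 fell within the NTC range. Its log2 fold change was 0.32 (SE 0.15, adjusted edgeR p 0.838). Mrpl14 (ENSMUSG00000023939.7, chromosome 17, 45686322 to 45698495, plus strand) encodes the L14 counterpart at the interface between subunits, where the assembly factor Malsu1 binds. It had 97.63, 103.2, 122.3 and 109.5 CPM in miR652-KD and 61.88, 97.73, 85.60 and 93.20 CPM in NTC. NTC 1 was far below the rest, and miR652-KD 1 and NTC 2 were nearly equal. The log2 fold change was 0.35 (SE 0.17, adjusted edgeR p 0.860), and 0.22 without NTC replicate 1.

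Mrpl23, the L23 counterpart at the mouth of the exit tunnel, had 187.6, 213.3, 216.5 and 209.1 CPM in miR652-KD and 148.8, 190.5, 202.5 and 175.9 CPM in NTC. The groups overlapped, with a log2 fold change of 0.20 (SE 0.12, adjusted edgeR p 0.924), and 0.11 without NTC replicate 1. Its counts are uncertain where reads could be split with the pseudogene Mrpl23-ps1. Mrpl34, highest per exon length, was close to level, with 99.40, 87.49, 119.6 and 116.9 CPM in miR652-KD and 91.34, 83.61, 116.0 and 113.5 CPM in NTC. Its log2 fold change was 0.07 (SE 0.16). Mrpl54 had 102.9, 118.1, 110.4 and 127.4 CPM in miR652-KD and 100.6, 80.18, 105.4 and 112.5 CPM in NTC, a log2 fold change of 0.21. Mrpl28 had 148.9, 217.4, 205.0 and 187.0 CPM in miR652-KD and 142.3, 195.8, 161.8 and 147.8 CPM in NTC, a log2 fold change of 0.23. In both of these genes the groups overlapped.

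The Mrpl genes with negative estimates and the smallest p were Mrpl48, Mrpl37, Mrpl55 and Mrpl35, of which Mrpl35 is the L35 counterpart and the others are mitochondrion-specific. Mrpl48 had 63.29, 93.50, 76.05 and 70.98 CPM in miR652-KD and 72.24, 112.8, 80.35 and 116.3 CPM in NTC, so that NTC 1 and NTC 3 lay inside the miR652-KD range. Its log2 fold change was -0.33 (SE 0.20, adjusted edgeR p 0.934). It also has a pseudogene, Mrpl48-ps, with 26 to 52 reads per library. Mrpl37 (-0.24), Mrpl55 (-0.24) and Mrpl35 (-0.21) had adjusted edgeR p-values from 0.989 to 0.992. Single libraries moved these estimates: Mrpl37 was at -0.07 without NTC replicate 4, Mrpl35 at -0.06 without NTC replicate 3 and Mrpl55 at -0.13 without miR652-KD replicate 3. Mrpl47 had the largest within-group SD of log2 CPM among Mrpl genes (0.464, beside 0.458 for Mrpl46), with 32.63, 25.35, 12.77 and 30.93 CPM in miR652-KD and 28.99, 27.18, 36.93 and 22.69 CPM in NTC. Its log2 fold change of -0.18 (SE 0.32) rested on the low value of miR652-KD 3, and was 0.04 without that library.

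Among small-subunit genes, Mrps5 (ENSMUSG00000027374.12, chromosome 2, 127587222 to 127606829, plus strand) was lower in every miR652-KD library than in any NTC library. It encodes the counterpart of bacterial S5, a protein near the mRNA entry and the decoding centre, and in Caenorhabditis elegans reduced expression of its homologue extends lifespan. Its values were 46.67, 47.30, 51.27 and 50.96 CPM in miR652-KD and 96.92, 73.48, 60.61 and 58.56 CPM in NTC. The miR652-KD libraries lay close together and the NTC libraries were spread out, with NTC 1 the highest, against the general pattern of that library. The means were 49.05 ± 2.40 CPM in miR652-KD and 72.39 ± 17.6 CPM in NTC (SD, n = 4 each), with a log2 fold change of -0.55 (SE 0.19), an unadjusted edgeR p of 0.0139 and an adjusted p of 0.779. Leaving out any single library gave -0.64 to -0.40, where again the sign could hardly change because the groups did not overlap.

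Mrps12 (ENSMUSG00000045948.8, chromosome 7, 28739641 to 28741820, minus strand) encodes the counterpart of S12, the protein whose changes make bacteria resistant to streptomycin. It had the largest positive log2 fold change among the 77, 0.40 (SE 0.19, adjusted edgeR p 0.859). That rank rested on NTC replicate 1, without which Mrps12 was at 0.25, below Mrpl42 at 0.33 and Mrpl40 at 0.27. Its values were 104.5, 140.3, 151.3 and 146.3 CPM in miR652-KD and 71.16, 108.1, 124.1 and 107.8 CPM in NTC. In each group replicate 1 was lowest, and miR652-KD 1 fell below 3 of the NTC libraries. Mrps24 had 126.5, 157.5, 137.9 and 130.2 CPM in miR652-KD and 100.1, 115.2, 129.1 and 121.8 CPM in NTC, a log2 fold change of 0.25 (SE 0.13, adjusted edgeR p 0.882). Only miR652-KD 1 was below an NTC library. Mrps7, the counterpart of S7, which organises the head of the small subunit, and Mrps16, the S16 counterpart, had log2 fold changes of 0.24 and 0.23, with adjusted edgeR p-values of 0.904 and 0.934.

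The other small-subunit genes with negative estimates were close to level. Mrps21, the S21 counterpart, had the tightest replicates of all 77 genes, with 56.21, 56.18, 52.83 and 53.26 CPM in miR652-KD and 53.74, 64.49, 64.37 and 59.65 CPM in NTC. Its groups overlapped only through NTC 1, and its log2 fold change was -0.15 (adjusted edgeR p 0.995). Mrps2, the S2 counterpart, Mrps26, a mitochondrion-specific protein, and Mrps28 had log2 fold changes of -0.13, -0.09 and -0.05. Mrps18b had the loosest replicates of the 77 genes, with 14.85, 11.13, 15.08 and 24.06 CPM in miR652-KD and 15.67, 27.04, 10.32 and 20.77 CPM in NTC. It is 1 of 3 mammalian genes related to bacterial S18, and 30.5% of its exon bases are shared with Gm16279. Its log2 fold change was -0.18 with an SE of 0.38.

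**Figure D4:**
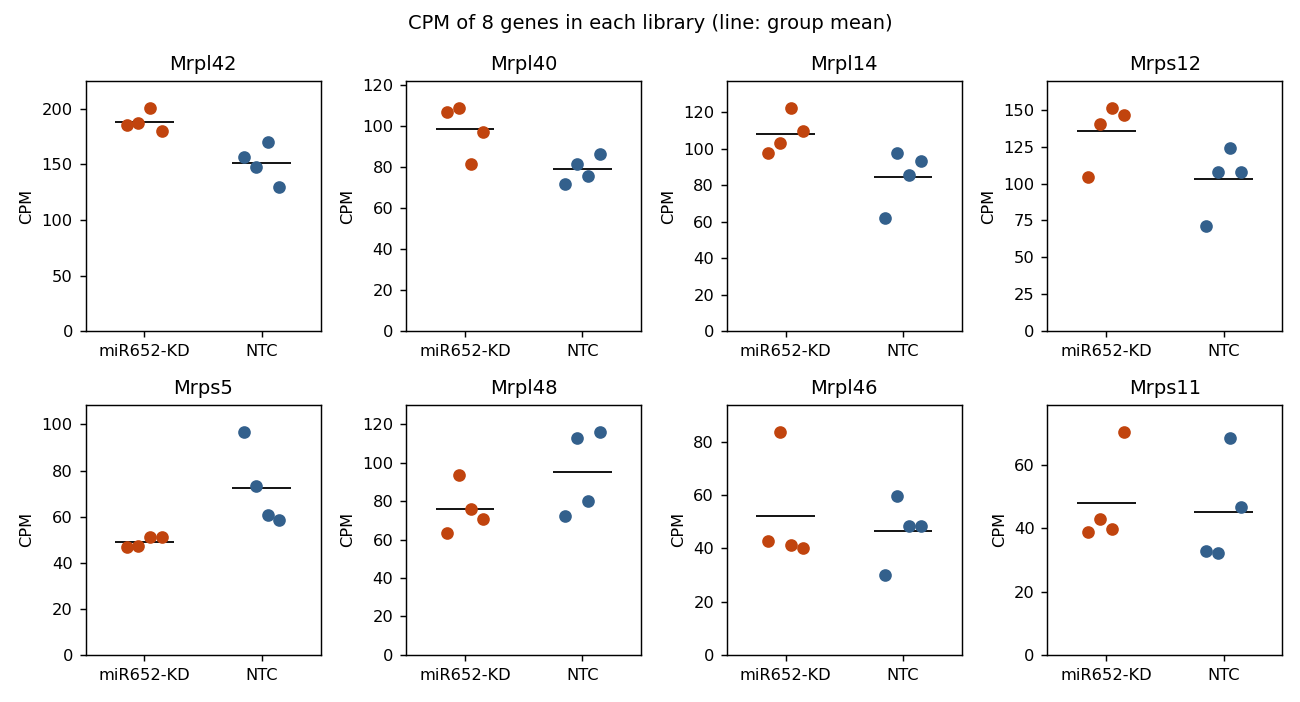
CPM in each library for 8 genes, miR652-KD left in red and NTC right in blue, replicates 1 to 4 from left to right, with a line at each group's mean; each panel has its own axis from 0. In Mrpl42 all miR652-KD points lie above the NTC points and in Mrps5 all lie below, while the other 6 genes overlap, and Mrpl46 and Mrps11 each have a single high miR652-KD point.

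The spread between replicates was several times the counting error. The coefficient of variation within groups had a median of 17.8% over the 77 genes, from 6.4% in Mrps21 to 36.3% in Mrps18b. Counting error alone would give a median of 3.01%, with a range of 1.79% to 6.02%. The divergent neighbours Mrps11, the S11 counterpart, and Mrpl46 were among the most variable, at 34.9% and 34.3%. Mrps11 had 38.83, 42.80, 39.66 and 70.52 CPM in miR652-KD and 32.69, 32.17, 68.60 and 46.81 CPM in NTC. Mrpl46 had 42.65, 83.90, 41.47 and 40.22 CPM in miR652-KD and 29.93, 59.50, 48.44 and 48.45 CPM in NTC. Despite the shared start region printed above, their high libraries were different: miR652-KD 4 and NTC 3 for Mrps11, and miR652-KD 2 and NTC 2 for Mrpl46. Their exons overlap, over 8.0% of Mrps11 and 12.2% of Mrpl46, on opposite strands, and whether reads there were counted depends on a strand setting that no source used here gives.

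Across genes the profile of levels was much the same in every library. Spearman's rho between 2 libraries over the 77 genes was 0.838 to 0.926 for the 12 pairs within groups and 0.835 to 0.917 for the 16 pairs between groups. NTC 1 stood apart in level: it was the lowest of the 8 libraries for 29 of the 77 genes, beside 2 to 10 for the other libraries. Genes above their own mean numbered 34, 47, 44 and 47 in miR652-KD libraries and 13, 46, 44 and 35 in NTC libraries. The median deviation of a gene from its own mean was -0.02, 0.08, 0.06 and 0.08 on the log2 scale in miR652-KD and -0.20, 0.08, 0.03 and -0.01 in NTC. NTC 1 also had the highest share of reads assigned to no gene, and the part of that in its low values was not tested.

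**Figure D5:**
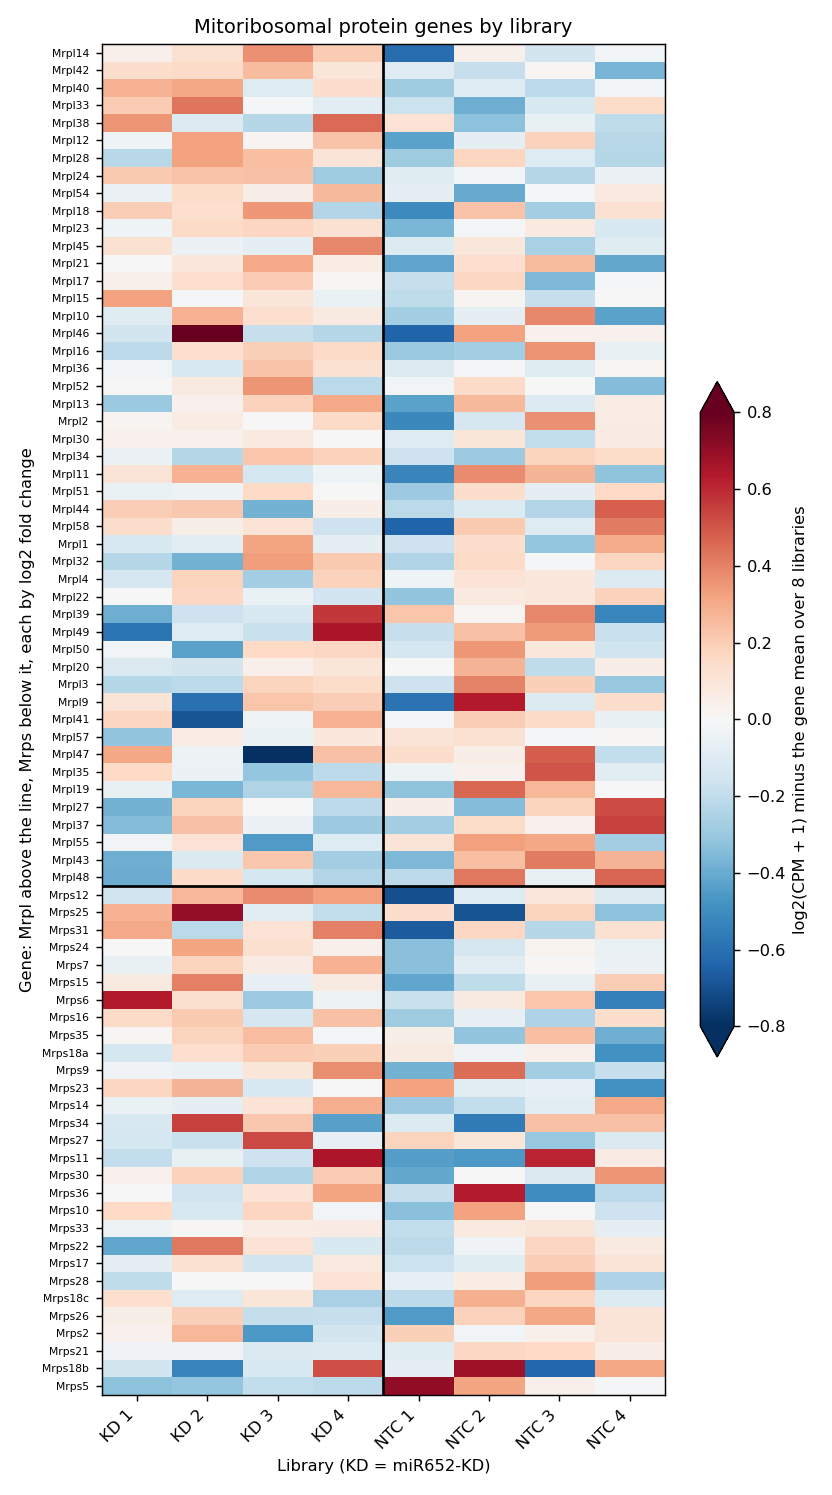
Deviation of log2(CPM + 1) from the gene's mean over the 8 libraries, for the 77 tested genes in rows (Mrpl above the line, Mrps below it, each in order of log2 fold change) and the libraries in columns, miR652-KD left and NTC right; colours end at 0.8 in each direction. NTC 1 is mostly blue, with 13 of 77 genes above their mean, and the bottom row, Mrps5, is red in NTC 1.

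The genes with a 5p seed match showed no common direction. Mrpl17 (L17 counterpart) had a log2 fold change of 0.19, Mrpl11 (L11 counterpart) 0.06, Mrpl51 0.03, Mrpl49 -0.05 and Mrps2 -0.13, with adjusted edgeR p-values of 0.963 or more. Mrpl11 had 49.12, 55.57, 41.22 and 44.44 CPM in miR652-KD and 31.34, 59.64, 55.24 and 36.28 CPM in NTC. Its miR652-KD values all lay inside the NTC range.

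The remaining parts of the mitochondrial translation system were examined as lists. Of 5 mitoribosomal proteins with other symbols, 0 were called and 3 were above 0, with a median log2 fold change of 0.01. Aurkaip1, a small-subunit protein, had 136.5, 170.7, 172.8 and 135.0 CPM in miR652-KD and 111.2, 112.1, 117.2 and 153.0 CPM in NTC, a log2 fold change of 0.32 (adjusted edgeR p 0.844). Only NTC 4 reached the miR652-KD range. Dap3, a GTP-binding protein of the small subunit, was at -0.12, Ptcd3 at -0.05, Chchd1 at 0.01 and Gadd45gip1, a large-subunit protein, at 0.09 on the log2 scale.

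Of 26 assembly factors, which fold, modify and join the mitochondrial ribosomal RNAs and proteins, 0 were called, 17 were above 0 and the median log2 fold change was 0.13. Mpv17l2 had the smallest p, with 48.30, 89.31, 65.90 and 52.63 CPM in miR652-KD and 48.49, 47.23, 41.16 and 24.94 CPM in NTC, a log2 fold change of 0.67 (adjusted edgeR p 0.814). Of 13 translation factors 12 were tested, 0 were called and 8 were above 0, with a median of 0.05. Tufm, the elongation factor that brings aminoacyl-tRNA to the ribosome, was at 0.34 (adjusted edgeR p 0.902) and Gfm1, the translocation factor, at -0.51 (adjusted edgeR p 0.944). Slirp did not pass the filter on low counts.

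The mitochondrially encoded RNAs, which the mitoribosome translates or contains, lay the other way. Of 15 such RNAs 14 were tested and 0 were called, and all 14 estimates were below 0 with a median log2 fold change of -0.29. An unadjusted p below 0.05 was found for 6 of the 14, all lower (background 5.99% in either direction), and 3 were lower with no overlap between groups (background 2.15%). Mitochondrial mRNAs made up 2.02, 1.68, 1.96 and 1.88% of gene counts in miR652-KD and 2.37, 2.58, 2.35 and 2.27% in NTC, with no overlap. Among these mRNAs mean CPM was very uneven, with 6354 in miR652-KD and 8021 in NTC for mt-Co1. It was 24.05 and 28.61 for mt-Co2, and 18.9 and 22.26 for mt-Atp6. The share therefore mainly follows the mRNAs with high counts, and the cause of the low counts was not tested. For mt-Co1, a core subunit of cytochrome c oxidase, the values were 6735.5, 5775.9, 6567.7 and 6335.1 CPM in miR652-KD and 7828.8, 8844.6, 7565.2 and 7844.9 CPM in NTC (log2 fold change -0.33, adjusted edgeR p 0.470). The ribosomal RNAs of the mitoribosome overlapped between groups, with log2 fold changes of -0.09 for mt-Rnr1 in the small subunit and -0.23 for mt-Rnr2 in the large subunit. Erythroid marker sums were also lower without overlap in miR652-KD, as given above, and their part in the mitochondrial RNAs was not tested.

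The proteins of the cytosolic ribosome, which makes the mitoribosomal proteins, were mostly above 0. Of 79 genes 76 were tested, 0 were called and 74 were above 0 (background 49.5%). An unadjusted p below 0.05 was found for 18, all with a positive estimate (background 5.99% in either direction), and 11 were higher with no overlap between groups (background 2.35%). Their median log2 fold change was 0.17, and they took 9.003, 8.549, 9.018 and 8.40% of gene counts in miR652-KD and 7.39, 8.73, 7.77 and 7.44% in NTC, which overlap through NTC 2. NTC 1 was the lowest library here as well. Dividing-cell markers (8 genes) summed to 566.1, 681.2, 1225.9 and 669.5 CPM in miR652-KD and 456.2, 450.6, 655.3 and 515.5 CPM in NTC, with overlap. Of these 8, 0 were called, 7 were above 0 and 1 was below, with a median log2 fold change of 0.62. Unadjusted edgeR p was below 0.05 for 5, all higher (background 5.99% in either direction). Higher values with no overlap were found for 2 (background 2.35%). The part of dividing cells in either ribosome's genes was not tested. The mitoribosomal and cytosolic lists were not tested against each other.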

How the data were processed

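Reads of 8 Smart-seq2 libraries were aligned with HISAT2 2.1.0 to mm10 and counted per gene with HTSeq 0.11.2, per the submitters' processing notes, which also list DESeq2; no source used here gives the strand setting. The authors deposited raw counts per gene for each library. HTSeq's 5 summary lines were left out of totals. Of 55487 gene rows 55394 matched GENCODE M21, and the other 93 held at most 0.004% of counts. CPM was taken over all gene rows. Testing used edgeR 4.0.16 (R 4.3.3; quasi-likelihood, TMM, filterByExpr with a minimum count of 10 and minimum total of 15, Benjamini-Hochberg) over all genes passing the filter, with DESeq2 1.42.0 and other scalings as alternatives; the code was tested on simulated data. Values printed with ± are means and SDs of plain CPM. The SE of an edgeR log2 fold change was derived as its absolute value divided by the square root of the F statistic. No p-value was computed for sums, ratios or medians.

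Named genes were, per subunit, the 4 of smallest p in each direction, the 3 highest per kb of exons, the one of largest within-group SD of log2 CPM, those failing the filter and those whose groups did not overlap. Members and lists were chosen with earlier results of these data known. One HSC marker of the fixed list is not reported here and was left out of its sum. Genes with seed matches, Mrps11, Mrpl46 and other genes outside that rule were chosen after their values were seen. Floors of 3 reads and counting errors cover counting only, since amplified reads without molecular identifiers are not independent molecules. Sequences are from RefSeq (GRCm38.p6), and 3′ UTRs from GENCODE M21.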

Additional observations from a re-analysis of the deposited data

Results flagged for a closer look

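In 7 of 164 groups of 4 libraries (4.3%), 1 library lay far from the other 3 by Dixon's test at its 95% critical value; chance gives about 1 in 20. Single low libraries were found for Mrpl24 in miR652-KD 4, with 47.49 CPM against 67.38 to 68.41 CPM in the other miR652-KD libraries, and for Mrpl16 in miR652-KD 1, with 45.24 CPM against 57.7 to 60.02 CPM. Single high libraries were found for Mrpl46 in miR652-KD 2, with 83.9 CPM against 40.22 to 42.65 CPM, and for Mrps11 in miR652-KD 4, with 70.52 CPM against 38.83 to 42.8 CPM. Mrpl1 was high in miR652-KD 3, with 31.16 CPM against 22.76 to 23.49 CPM, and so was Mrps27, with 46.49 CPM against 28.15 to 30.47 CPM. In NTC, Mrpl44 was high in NTC 4, with 118.9 CPM against 72.24 to 78.9 CPM in the other NTC libraries.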

How the results depend on the processing

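The count of 0 called mitoribosomal genes held under every scaling, filter, tool and left-out library tried. The count at an unadjusted p below 0.05 was 2 to 6 when each library was left out in turn (6 without NTC replicate 2). Leaving out single libraries gave a median log2 fold change of -0.012 to 0.105 over all members, -0.025 to 0.105 for Mrpl and 0.046 to 0.151 for Mrps, a log2 difference in summed CPM of 0.030 to 0.113 and one in the subunit ratio of -0.049 to -0.004. Among the named genes, estimates that changed sign were those of Mrps18b (-0.43 to 0.08, positive without NTC replicate 2), Mrps26 (-0.24 to 0.01, positive without NTC replicate 3, and 0.08 without NTC replicates 3 and 4), Mrps28 (-0.13 to 0.07, 0.07 without NTC replicate 3 but 0.01 with miR652-KD replicate 1 left out) and Mrpl47 (-0.32 to 0.04, positive without miR652-KD replicate 3), while over all 77 members the number above 0 was 38 (without NTC replicate 1) to 58 (without NTC replicate 2); in these fits fewer samples entered, and the cause was not tested further. Over all genes, DESeq2 called 131 and edgeR 6, and each fit without 1 library called 0. With NTC replicates 3 and 4 left out together, 0 genes and 0 members were called. In that fit 3 members had an unadjusted edgeR p below 0.05. The median over members was 0.11, with 52 of 77 above 0. The labels name no pairing of the replicate numbers. Over the genes passing the filter, same-numbered deviations from the group means correlated at -0.033 to -0.01. These values show no sign of pairing but cannot exclude it. With the replicate block, 0 genes were called, 0 members were called, 3 members had an unadjusted p below 0.05 and the median over members was 0.105. Members sharing no exon bases with another gene, an alternative chosen after seeing the data, had a median of 0.074. Shared exons, pseudogenes and 4 libraries per group limit what single genes can show.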
